A study of Mus musculus with 16 samples.

Results

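The genes described here are 58 members of 4 signalling families of the embryo: 23 FGF genes, 19 BMP genes (activins, growth and differentiation factors and BMP antagonists included), 7 Hedgehog genes and 9 Notch genes. They were taken by name out of 21627 that code for a protein on the mouse autosomes and X (build GRCm38). The list holds 40 ligands, 9 receptors and 9 other members: the intracellular Fgf12 and Fgf14, the protease Bmp1, the antagonists Nog, Chrd and Grem1, and the transcription factors Gli1, Gli2 and Gli3. The measure was the covered share, which is the percent of a gene body plus 5 kb on each side that lay inside deposited H3K27me3 peaks. That stretch is called the window of the gene. In 25 of the 58 windows another coding gene also lay at least in part, so coverage there is not the member's alone.

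H3K27me3 is a trimethylated lysine in the tail of histone H3, the mark that Polycomb repressive complex 2 places on silent genes through its catalytic subunit EZH2. The study mapped it by ChIP-seq (antibody capture of the marked chromatin, then sequencing) in B cells isolated from the spleens of 6 to 8 week old C57BL/6 mice by CD43 bead separation, and GSK343 is a small-molecule inhibitor of EZH2. The cells of all groups were cultured for 48 h with the B cell factors BAFF and IL-4, each at 2 ng/mL, and with either DMSO or 1 µM GSK343. They came from wild-type mice or from triple mutants of Ifih1, Rigi and cGAS, genes of cytosolic sensors of RNA (Ifih1, Rigi) and DNA (cGAS). The 16 samples form 8 groups of 2, since every ChIP group has an input group, chromatin set aside before the antibody step. The 4 ChIP groups reached the analysis as 1 peak list each, so no difference between lists has a replicate check and none was tested. In bulk chromatin, fewer cells with the mark and less mark per cell cannot be told apart.

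FGF, BMP, Hedgehog and Notch signals instruct cells of the embryo where they are and what to become. FGF, BMP and Hedgehog ligands are secreted and bind receptors on other cells, while Notch ligands sit in the membrane and act on the neighbouring cell. Genes of such developmental regulators are textbook targets of Polycomb in cells that do not use them. The receptor Notch2 is used by mature B cells: when bound by its ligand Dll1, it directs the formation of marginal zone B cells in the spleen.

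The lists held 39495 peaks in wild type with DMSO, 11903 in wild type with GSK343, 49803 in the mutant with DMSO and 10847 in the mutant with GSK343. The treatment of each list was read from an initial in its peak names, D for DMSO and G for GSK343. Each list was taken as a call on pooled duplicates, which the peak names do not state. The prefix of the peak names in both mutant lists ends in 1, so that a call on the first replicate alone cannot be told apart. Of 8 B cell marker genes, 0 had a peak in any list. Of 8 T cell markers, 7, 6, 7 and 5 had a peak (in the order wild type DMSO, wild type GSK343, mutant DMSO, mutant GSK343, which is kept for every run of 4 values below), and the myeloid markers gave 5, 4, 6 and 3 of 8. The erythroid or megakaryocyte markers gave 3, 2, 4 and 2 of 6. Of all genes 43.5, 26.3, 48.9 and 24.4% had a peak in the window.

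Nearly all members had a peak in the window under DMSO, and many of them were covered over wide stretches. Presence was counted from 1 bp. In wild type with DMSO 11 of the 58 members were covered by under 5%, against 15585 of 21627 genes. In wild type with DMSO 56 of the 58 members had a peak in the window (96.6%, 95% Wilson interval 88.3 to 99.05%), while 43.5% of all protein-coding genes did. With GSK343 51 wild-type members still had one (87.9%, 77.1 to 94.0%), against 26.3% of all genes. In the mutant the count was 57 with DMSO (98.3%, 90.9 to 99.7%) and 49 with GSK343 (84.5%, 73.1 to 91.6%), against 48.9% and 24.4% of all genes. The intervals cover counting over members only, and members are not replicates of a condition.

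The median covered share of the 58 members was 28.1% in wild type with DMSO, 8.25% with GSK343, 38.0% in the mutant with DMSO and 10.0% with GSK343. The median over all genes was 0% in each list. A member was thus covered over a smaller part of its window under GSK343 in both genotypes, and the 4 totals of covered sequence over all members were 546, 245, 711 and 227 kb. At least 50% of the window lay in peaks for 18, 5, 25 and 3 members, and for 5.16, 1.35, 7.84 and 0.994% of all genes. The widest peak of a member had a median of 6.91 kb in wild type with DMSO, where the median peak of the whole list was 0.936 kb wide. Under GSK343 the widest peak of a member had a median of 3.44 kb in wild type and 3.36 kb in the mutant, while the list medians there were 1.05 and 0.915 kb. These are unlike measures, since the widest peak of a window is set against every single peak of a list. The widest peak per window over all genes is not given here.

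**Figure D1:**
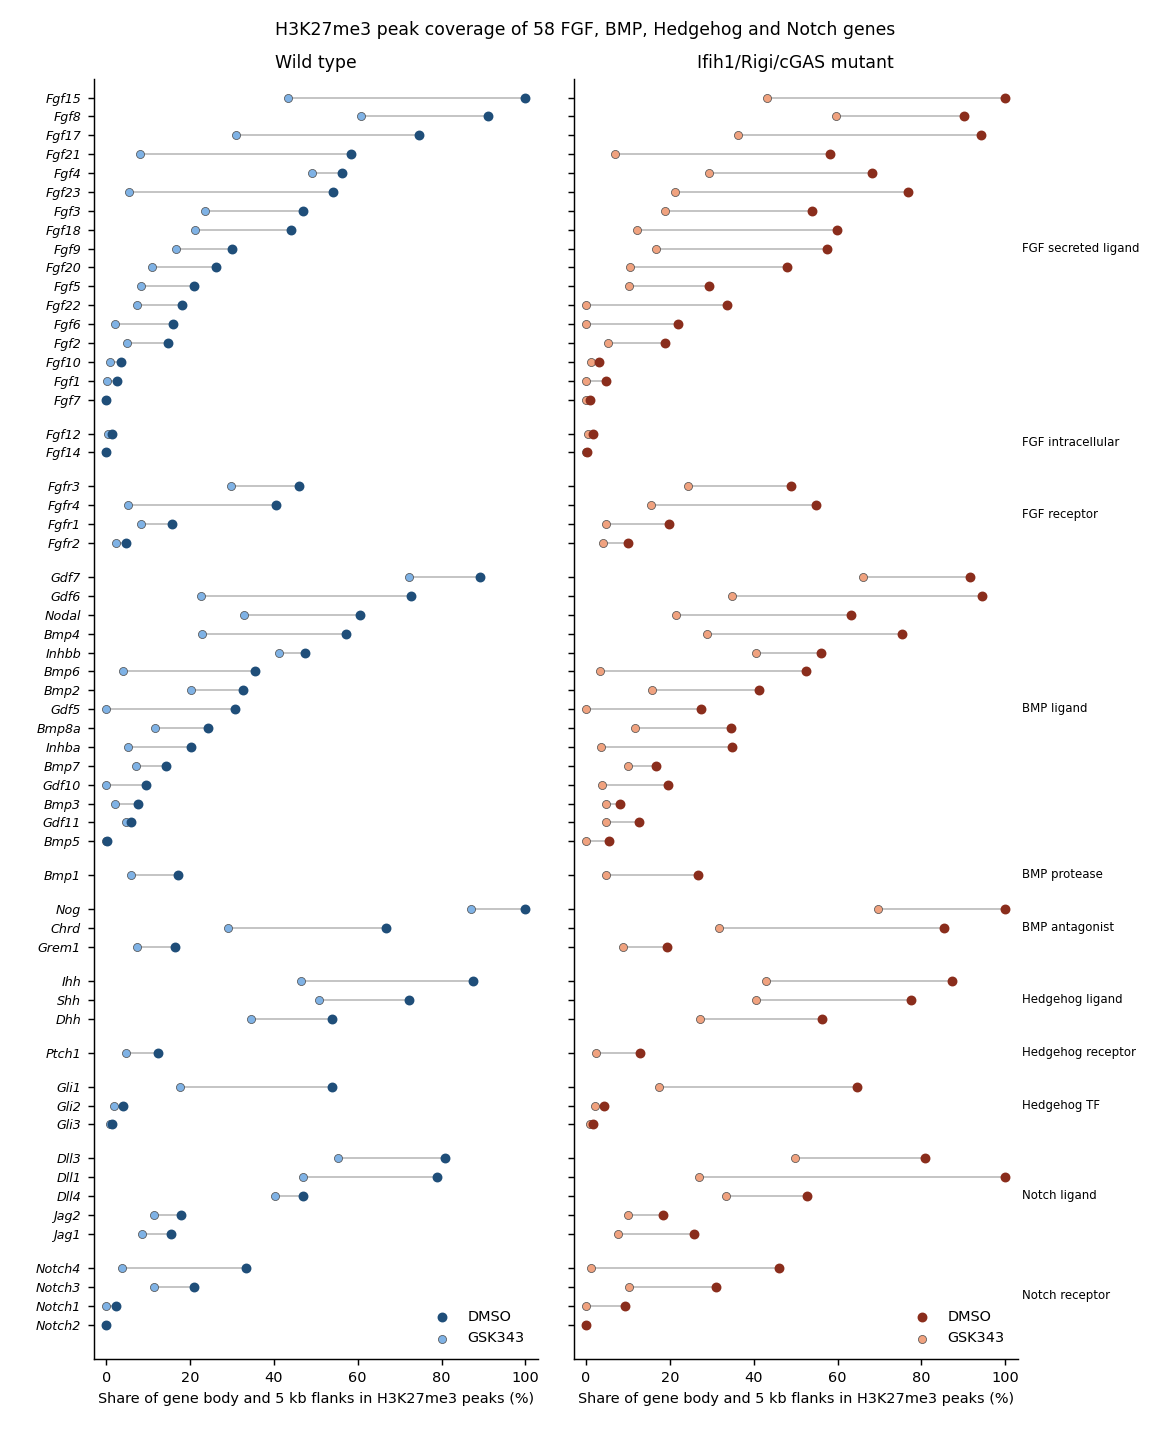
Covered share of the window (percent, x axis) of each of the 58 members (y axis, ordered by role), in wild type (left) and mutant (right), with a line from the DMSO list to the GSK343 list of the same genotype. The GSK343 point lies left of the DMSO point for 56 of 56 members covered under DMSO in wild type and 57 of 57 in the mutant.

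Among the 17 secreted FGF ligands the median covered share was 29.9, 8.20, 53.9 and 10.4% in the 4 lists. Fgf15, a gut hormone that represses bile acid synthesis (chr7:144896532-144900953), was covered by 100, 43.3, 100 and 43.1%. Fgf8, which patterns the limb and the midbrain (chr19:45736491-45742941), was covered by 91.1, 60.8, 90.2 and 59.7%. For these ligands the DMSO lists covered all or nearly all of the window, and the GSK343 lists left a core of similar extent in both genotypes. At the other end, Fgf7, the keratinocyte growth factor, had no peak in wild type and was covered by 0.911% in the mutant with DMSO alone. Fgf1, the acidic FGF, had 2.54, 0.294, 4.78 and 0%. Fgf10, the signal for limb and lung buds, had 3.52, 0.894, 3.11 and 1.10%. The secreted ligands thus ranged from unmarked to wholly marked within a list. Fgf12 and Fgf14, which stay inside the cell and act on voltage-gated sodium channels, had low shares in very long windows (605 and 713 kb). The shares were 1.34, 0.511, 1.65 and 0.521% for Fgf12, and 0.0667, 0, 0.223 and 0% for Fgf14. In wild type with DMSO the covered length was 8.11 kb for Fgf12, above the median of 6.915 kb for the secreted ligands, and 0.476 kb for Fgf14. A low share is thus not a short covered length for Fgf12.

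The 4 FGF receptor tyrosine kinases differed among themselves. Fgfr3, which restrains bone growth, was covered by 46.1, 29.9, 48.8 and 24.3%. Fgfr4, the receptor through which Fgf15 acts on the liver, was covered by 40.6, 5.18, 54.9 and 15.4%. Fgfr1 had 15.8, 8.29, 19.8 and 4.83%, and Fgfr2 had 4.77, 2.35, 9.90 and 3.98%. Fgfr3 and Fgfr4 had like shares under DMSO, yet under GSK343 Fgfr3 kept 64.8% of its wild-type DMSO share and Fgfr4 12.8%. In the mutant the contrast was smaller, with ratios of GSK343 to DMSO share of 0.498 for Fgfr3 and 0.280 for Fgfr4.

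The 15 BMP, GDF, activin and Nodal ligands had median shares of 30.7, 7.12, 34.8 and 9.95%. Gdf7, a signal of the roof plate of the neural tube (chr12:8297918-8301954), was covered by 89.1, 72.2, 91.6 and 66.1%. Gdf6, a joint and eye patterning factor (chr4:9844372-9862345), was covered by 72.8, 22.7, 94.5 and 34.7%. Both were covered over most of the window under DMSO, but under GSK343 Gdf7 held the larger share in both genotypes. The lowest pair were Bmp5, with 0.191, 0, 5.55 and 0%, and Gdf11, with 5.96, 4.66, 12.6 and 4.77%. The window of Gdf11 also takes in the coding genes Sarnp and Cd63. Bmp1, the protease that cleaves procollagen and the antagonist chordin, had 17.2, 5.82, 26.7 and 4.68%.

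The 3 extracellular antagonists, which bind BMPs and keep them from their receptors, were split. Nog, which encodes noggin (chr11:89300638-89302559), was covered by 100, 86.9, 100 and 69.5%. Chrd, which encodes chordin (chr16:20731425-20742384), was covered by 66.8, 29.1, 85.3 and 31.6%. Grem1, which encodes gremlin, had 16.4, 7.43, 19.4 and 8.71%. Noggin was thus the member with the most coverage under GSK343 in both genotypes, and gremlin was below the median of all members in wild type under either treatment.

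In the Hedgehog family the 3 ligands were covered over most of their windows under DMSO, and the receptor and 2 of the 3 transcription factors were not. Ihh, the ligand of growing cartilage (chr1:74945315-74951672), had 87.6, 46.5, 87.3 and 43.0%. Shh, the ligand of floor plate and limb bud (chr5:28456840-28467101), had 72.2, 50.8, 77.6 and 40.4%, and Dhh, the ligand of testis and nerve sheath, had 53.9, 34.6, 56.2 and 27.3%. Ptch1, the Hedgehog receptor and itself a target gene of the pathway, had 12.4, 4.80, 12.8 and 2.291%. Among the factors that carry the signal to the nucleus, Gli1 had 53.8, 17.6, 64.6 and 17.4%, Gli2 had 3.99, 1.95, 4.19 and 2.08%, and Gli3 had 1.34, 0.842, 1.69 and 0.818%. The window of Gli1 also takes in the coding gene Arhgap9, and those of Gli2 and Gli3 are far longer.

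The 5 Notch ligands covered a wide range under DMSO. Dll3, a ligand that inhibits rather than activates the receptor (chr7:28293555-28301785), had 80.9, 55.4, 80.9 and 49.9%, and Dll1 (chr17:15367354-15376932) had 79.0, 47.0, 100 and 27.04%. Dll4, a ligand of vessels and thymus, had 46.9, 40.2, 52.6 and 33.3%, between the other ligands in the DMSO lists. The 2 Jagged ligands were lower: Jag1 had 15.6, 8.58, 25.7 and 7.60%, and Jag2 had 17.8, 11.5, 18.3 and 9.89%. Dll1 had the widest single peak of any member, 37.8 kb in the mutant with DMSO. In the other lists its widest peak measured 18.1 kb (wild type DMSO), 4.74 kb (wild type GSK343) and 1.76 kb (mutant GSK343).

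Notch2, the receptor of marginal zone B cells, was the sole member with no peak in any list. Notch1, the receptor that commits progenitors to the T lineage, had 2.45, 0, 9.38 and 0%. Notch3 had 20.9, 11.5, 31.1 and 10.1%, and Notch4, a receptor of blood vessels, had 33.3, 3.71, 46.1 and 1.20%. The 4 receptors thus ran from no coverage to cover over a large part of the window under DMSO, and the window of Notch4 also takes in the coding genes Gpsm3 and Pbx2.

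**Figure D2:**
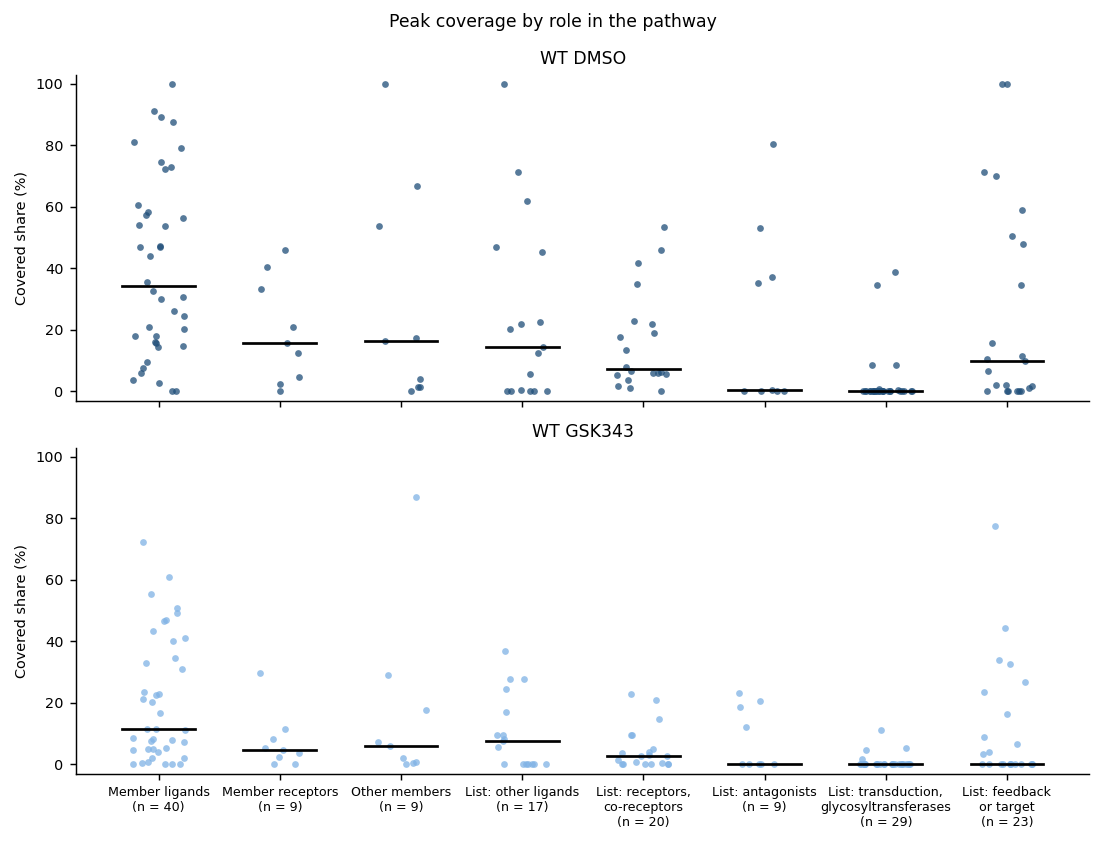
Covered share of the window (percent, y axis) by role (x axis) in the wild-type DMSO and wild-type GSK343 lists; each point is 1 gene and each bar the median of its role. The 8 roles plotted are ligands, receptors and other members of the 58, then roles of the 98 other genes of the 4 pathways. Under DMSO the member ligands have the highest median of these 8, 34.1%. The signal transducers and glycosyltransferases of the other genes have the lowest, 0%.

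By family, the median covered share was 26.2, 8.06, 47.8 and 10.2% for FGF, 30.7, 7.43, 34.8 and 9.95% for BMP, 53.8, 17.6, 56.2 and 17.4% for Hedgehog, and 20.9, 11.5, 31.1 and 9.89% for Notch. Hedgehog was highest in each of the 4 lists over all members, and lowest in each among the 33 members with no other coding gene in the window, where its 5 genes (Shh, Ihh, Ptch1, Gli2 and Gli3) had medians of 12.4, 4.80, 12.8 and 2.291%. The family order thus rests on which members are counted. The other 3 families changed order between lists, so that FGF was below BMP in wild type with DMSO and above it in the mutant with DMSO. Shares within each family differed by more than the family medians did. A peak was present under wild-type DMSO for 22 of 23 FGF, 19 of 19 BMP, 7 of 7 Hedgehog and 8 of 9 Notch genes. Of all genes 43.5% had one.

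The 40 ligands had a higher median covered share than the 9 receptors (Fgfr1 to Fgfr4, Ptch1 and Notch1 to Notch4) in every list. The ligand medians were 34.1, 11.6, 52.6 and 11.9%, the receptor medians 15.8, 4.80, 19.8 and 3.98%, and the differences 18.4, 6.78, 32.8 and 7.87 percentage points. A peak was present for 39, 36, 40 and 34 ligands and for 8, 7, 8 and 7 receptors. Of all genes 43.5, 26.3, 48.9 and 24.4% had one. Receptor genes are longer: the median window was 20.5 kb for ligands and 56.1 kb for receptors. In covered sequence the 2 roles were closer, with medians of 8.64, 4.06, 11.3 and 3.89 kb for ligands and 10.5, 2.69, 12.4 and 3.23 kb for receptors, so that receptors were the higher ones under DMSO.

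Among windows of 20 to 40 kb the order turned in both DMSO lists and in the mutant with GSK343. The 10 ligands there had medians of 20.7, 9.86, 32.0 and 10.05% and the 3 receptors (Fgfr3, Fgfr4 and Notch4) 40.6, 5.18, 48.8 and 15.4%. Among windows of 40 kb or more the 11 ligands had 14.8, 5.02, 18.8 and 5.17% and the 6 receptors 8.58, 3.58, 11.4 and 3.14%. All 19 windows under 20 kb among ligands and receptors were those of ligands, and their medians were 57.2, 32.8, 68.2 and 28.8%. Role and length of the gene are thus entangled here, and the part of length in the difference between ligands and receptors was not tested further. Over the 58 members, Spearman's rho between window length and covered share was -0.777 in wild type with DMSO, and -0.220 between window length and covered kb. These are descriptions across genes that share a library and a divisor. The size of the difference also moved with the flank: in wild type with DMSO it was 35.0 points over gene bodies alone and 8.83 points with 20 kb flanks, with ligands higher in both.

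**Figure D3:**
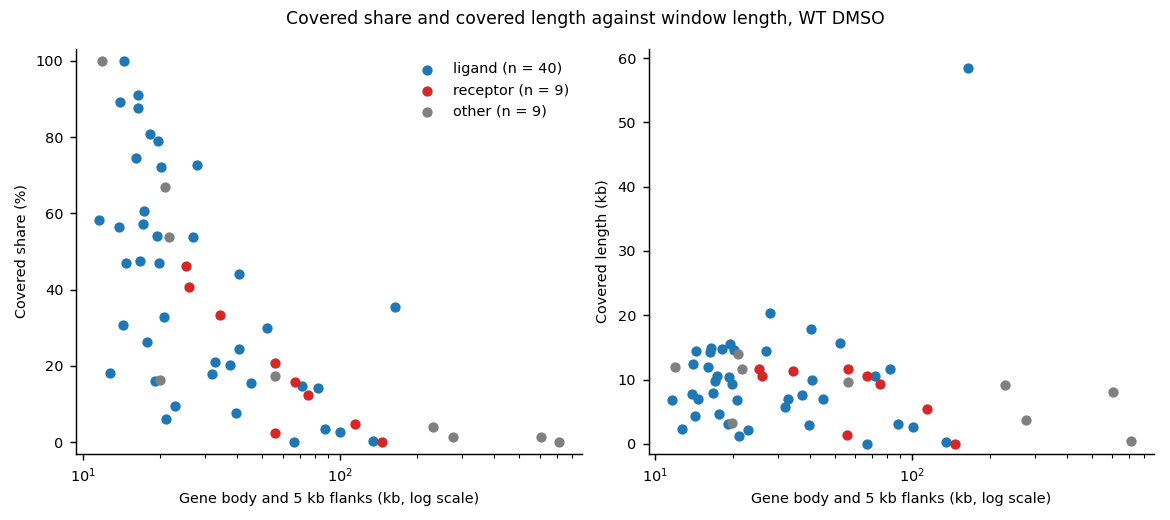
Window length (kb, log axis) against covered share (percent) and against covered kb in the wild-type DMSO list, with ligands, receptors and other members marked. The share is lower for longer windows (rho -0.777), while covered kb follows length less closely (rho -0.220).

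Under GSK343 the covered share was lower than under DMSO for each member covered under DMSO. The median ratio of GSK343 to DMSO share was 0.444 in wild type (56 members) and 0.339 in the mutant (57 members), and over all genes with a DMSO peak it was 0.168 and 0. A share lower by a fold of 2 or more was found for 34 of 56 members in wild type (60.7%), against 82.5% of all genes, and for 47 of 57 in the mutant (82.5%), against 93.3% of all genes. No peak was left in the window for 5 members in wild type (39.9% of all genes with a DMSO peak) and for 8 in the mutant (50.4%). Members had more coverage than most genes to begin with, so the same was counted among genes covered by at least 10% under DMSO. There 24 of 44 members (54.5%) were lower by 2-fold or more in wild type, against 75.7% of such genes, and 37 of 46 (80.4%) in the mutant, against 90.4%. The median ratio in these sets was 0.479 for members and 0.294 for all genes in wild type, and 0.344 and 0.114 in the mutant. Members so covered thus kept more of their DMSO coverage than the median gene did, in either genotype. The floor of 10% does not make the DMSO coverage alike. At least 50% of the window was covered for 18 of these 44 members and 1115 of the 4502 genes in wild type. In the mutant it was 25 of 46 members and 1696 of 5774 genes. Whether members keep more than genes of like DMSO coverage was not tested.

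By role, the median ratio was 0.478 and 0.350 (wild type and mutant) for ligands and 0.440 and 0.262 for receptors. By family it was 0.413 and 0.280 for FGF, 0.436 and 0.370 for BMP, 0.531 and 0.485 for Hedgehog, and 0.573 and 0.311 for Notch. The family order differed between genotypes: Notch had the highest median ratio in wild type and Hedgehog in the mutant. Across the 44 members covered by at least 10% in both DMSO lists, the 2 ratios had a Spearman's rho of 0.773, again as a description, since these genes share the 4 libraries.

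Among members covered by at least 10% under DMSO, the 5 that kept most of their share in wild type were Fgf4 (ratio 0.872), Nog (0.869), Inhbb (0.869), Dll4 (0.858) and Gdf7 (0.810). Inhbb, the beta subunit of activin B, was covered by 47.4, 41.2, 56.1 and 40.6%. In the mutant the highest ratios belonged to Inhbb (0.724), Gdf7 (0.721), Nog (0.695), Fgf8 (0.662) and Dll4 (0.634). So 4 genes, Nog, Inhbb, Dll4 and Gdf7, stood among the highest 5 in both genotypes, and Fgf4 did not: its shares were 56.3, 49.1, 68.2 and 29.3%, a mutant ratio of 0.429.

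The 5 lowest in wild type were Gdf5 (ratio 0), Fgf23 (0.0990), Notch4 (0.111), Bmp6 (0.111) and Fgfr4 (0.128). Gdf5, a joint factor, was covered by 30.7, 0, 27.5 and 0%. Fgf23, the bone hormone that lowers phosphate, was covered by 54.0, 5.35, 76.9 and 21.2%. Bmp6, which sets hepcidin and with it iron uptake, was covered by 35.5, 3.96, 52.5 and 3.36%, or 58.4, 6.51, 86.5 and 5.52 kb, the longest covered sequence of any member under DMSO. Its 20 peaks in wild type with DMSO came down to 5 with GSK343, and its 21 in the mutant to 5. In the mutant the lowest were Fgf22, Fgf6 and Gdf5, all with no peak left, Notch4 (0.0261) and Bmp6 (0.0639). Fgf22, an organizer of synapses, had 18.1, 7.47, 33.7 and 0%, and Fgf6, an FGF of muscle, had 16.0, 2.16, 21.9 and 0%. Gdf5, Notch4 and Bmp6 stood among the lowest 5 in both genotypes.

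Coverage was kept in the largest part close to gene starts, though not only there. A start site from RefSeq was matched for 43 of the 58 members and for 17273 genes in all. The start lay in a peak for 35 members in wild type with DMSO (81.4%), against 19.4% of all starts, and for 27 with GSK343 (62.8%), against 13.0%. The mutant gave the same counts, 35 with DMSO and 27 with GSK343, against 21.3% and 12.1% of all starts. So 27 of 35 starts (77.1%) kept their peak in either genotype, while over all genes 66.3% did in wild type and 56.1% in the mutant. Measured within 2.5 kb of the start alone, in place of the whole window, the median covered share of the 43 members was 76.3, 52.1, 90.9 and 45.2%. The median GSK343 to DMSO ratio there was 0.692 in wild type (37 members) and 0.578 in the mutant (38 members). Over whole windows it was lower, 0.444 and 0.339, but in a larger set (56 and 57 members) that includes those without a matched start.

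The share of DMSO-covered sequence that was still in a peak under GSK343 was lower at each step away from the start. Within 1 kb of a member's start 72.8% was kept in wild type, from 1 to 2.5 kb 65.6%, from 2.5 to 5 kb 39.0%, from 5 to 10 kb 26.0% and from 10 to 20 kb 15.2%. The mutant values were 66.4, 49.7, 28.5, 14.9 and 9.93%. Over all genes the wild-type values were 60.0, 37.9, 25.6, 22.9 and 24.1%, and the mutant values 47.2, 25.4, 13.9, 11.8 and 12.3%. Members were above all genes up to 10 kb in both genotypes and below them from 10 to 20 kb. The profile of member starts in peaks was 8 kb wide at 50% of its maximum in wild type with DMSO and 4.5 kb with GSK343, and 11 and 3.5 kb in the mutant. Over all genes the widths were 12 and 3 kb in wild type and 25 and 2.5 kb in the mutant. These widths cannot be set against those of the members. In the mutant with DMSO, coverage over all genes was still 11.7% near 20 kb upstream, above the 10.9% that is 50% of its maximum. In wild type with DMSO it was 7.50% there, near the 9.89% that is 50% of its maximum.

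**Figure D4:**
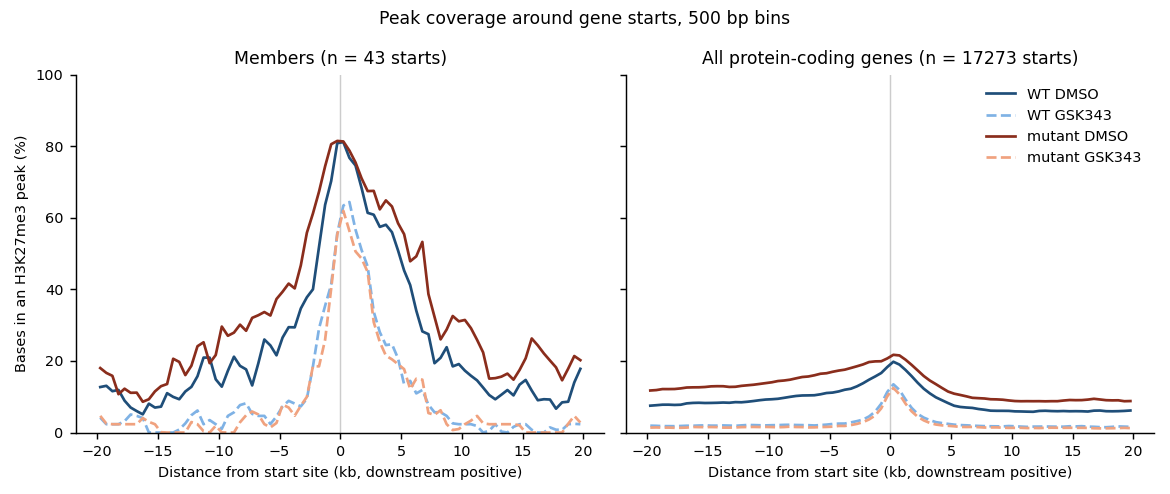
Percent of genes with a base in a peak (y axis, mean over 500 bp bins) against the distance from the start site (kb, x axis) in the 4 lists, for 43 members and for 17273 genes. The members' profiles reach 81.1, 64.4, 81.5 and 61.9%, those of all genes 19.8, 13.5, 21.7 and 12.5%, and the GSK343 profiles are narrower than the DMSO profiles of the same genotype.

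Bmp6 shows the pattern within 1 gene (chr13:38345716-38500314). Its widest wild-type peak, at its start, measured 20.5 kb with DMSO and 4.26 kb with GSK343, and in the mutant 28.3 and 3.68 kb. Its start thus stayed in a peak in all 4 lists while nearly all coverage of the gene body was absent under GSK343. The starts of Fgf12, Fgf21, Fgf23 and Notch4 left the peaks under GSK343 in both genotypes. Those of Dll1, Fgf10, Fgfr2 and Gdf10 did so in wild type and not in the mutant, and those of Bmp8a, Fgf18, Fgf22 and Inhba in the mutant and not in wild type. Such a difference can rest on a peak edge: within 2.5 kb of the Dll1 start 80.1% was covered in wild type with GSK343 and 27.7% in the mutant, although the start base itself lay in a peak only in the mutant. The differences between genotypes were not tested. Fgf21, a hormone of the liver, had shares of 58.3, 8.06, 58.2 and 6.92%. The starts of Bmp5, Fgf14, Fgf6, Fgf7, Gdf11, Notch1, Notch2 and Ptch1 lay in no peak of any list. The matched start of Ptch1 lies 7725 bases inside the gene, that of Inhba 7595 and that of Fgf14 485140, so these 3 may not stand for the main promoter. The 5′ end of the Ptch1 gene body itself lay in a peak in all 4 lists. In the start counts, Ptch1 still stands as a start outside peaks. The widest peak of Fgf12 lies inside the gene (chr16:28443636-28449011 in wild type with DMSO), far from the matched start at 28753243. It measured 5.38, 2.26, 5.22 and 2.22 kb, so Fgf12 kept a peak there in all 4 lists while its matched start did not.

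CpG-rich promoters are known as sites where Polycomb gathers. CpG pairs were counted in the 300 bases around each start (the letters CG, which read alike on both strands). The count had a median of 20 over the 43 member starts (range 4 to 63) and 14 over all genes, and at least 20 were found in 22 of 43 (51.2%) against 36.5%. All 43 member windows and 94.99% of all windows held at least 1 CG. Member starts in a wild-type GSK343 peak had a median of 24 CG and the other 16 starts 11.5, and in the mutant the medians were 24 and 13.5. With DMSO the medians were 20 for the 35 starts in a peak and 17.5 for the other 8. The starts outside peaks include the matched start of Ptch1 (47 CG), which lies inside the gene. Over all genes the medians were 20 and 12 with GSK343 in wild type.

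The sequences of 4 starts, picked after their values were seen, are shown to put a CpG-rich and a CpG-poor start on each side: Fgf4 and Notch4 lie as the medians do, and Notch2 and Nodal do not. Each sequence is the 250 bases before the RefSeq start on GRCm38.p6, 5′ to 3′ on the plus strand, with CG pairs in capitals. Fgf4 (chr7:144861136-144861385) has 21 CG pairs here, and its start stayed in a peak in all 4 lists. Notch2 (chr3:98013288-98013537) has 34, and no list had a peak in its window. Nodal, the left-right signal of the embryo (chr10:61417722-61417971), has 3, and its start stayed in a peak in all 4 lists. Notch4 (chr17:34564045-34564294) has 4, and its start lay in a peak with DMSO and not with GSK343.
Fgf4: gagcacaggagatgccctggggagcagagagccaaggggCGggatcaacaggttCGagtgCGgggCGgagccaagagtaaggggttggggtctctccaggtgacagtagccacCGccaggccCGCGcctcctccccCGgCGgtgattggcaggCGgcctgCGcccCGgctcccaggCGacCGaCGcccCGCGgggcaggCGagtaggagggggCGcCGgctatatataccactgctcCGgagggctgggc
Notch2: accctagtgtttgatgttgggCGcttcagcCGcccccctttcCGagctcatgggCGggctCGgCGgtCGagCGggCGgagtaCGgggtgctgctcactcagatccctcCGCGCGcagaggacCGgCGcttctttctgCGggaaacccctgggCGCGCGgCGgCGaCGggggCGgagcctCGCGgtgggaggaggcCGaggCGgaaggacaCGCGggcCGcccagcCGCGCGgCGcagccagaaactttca
Nodal: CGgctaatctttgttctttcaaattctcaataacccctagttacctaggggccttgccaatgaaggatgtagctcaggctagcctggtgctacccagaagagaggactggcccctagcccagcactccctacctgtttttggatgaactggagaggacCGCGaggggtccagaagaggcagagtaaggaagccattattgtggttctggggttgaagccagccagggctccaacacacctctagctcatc
Notch4: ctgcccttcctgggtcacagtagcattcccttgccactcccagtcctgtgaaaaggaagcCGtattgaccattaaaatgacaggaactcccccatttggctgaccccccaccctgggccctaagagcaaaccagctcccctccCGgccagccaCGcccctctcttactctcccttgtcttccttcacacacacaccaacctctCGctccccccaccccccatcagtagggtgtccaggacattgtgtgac
The CpG-rich sequences of Fgf4 and Notch2 thus belonged to a covered and an uncovered start, and the CpG-poor ones of Nodal and Notch4 to a kept and a lost one. Nodal was covered by 60.6, 32.8, 63.2 and 21.4%. CpG content is a description of these sequences, and its part in coverage was not tested.

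Fgf3, Fgf4 and Fgf15 lie next to each other on chromosome 7, and each had a domain of its own. Fgf3, a signal for the inner ear, was covered by 46.9, 23.5, 53.9 and 18.9%. Over 110 kb around the 3 genes, peaks covered 43.0, 20.04, 52.2 and 13.6 kb, in 11, 7, 12 and 4 peaks. No peak reached from 1 of the 3 windows into another in any list. The main peak at Fgf15 measured 20.8, 5.25, 22.9 and 6.21 kb, that at Fgf4 7.81, 6.81, 9.32 and 4.06 kb, and that at Fgf3 6.04, 3.46, 7.51 and 2.79 kb. The widest of the 3 under DMSO, at Fgf15, thus came down by the greatest length under GSK343, while the peak at Fgf4 in wild type stayed near its DMSO width. Nowhere in the list of 58 did the windows of 2 members share a peak.

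**Figure D5:**
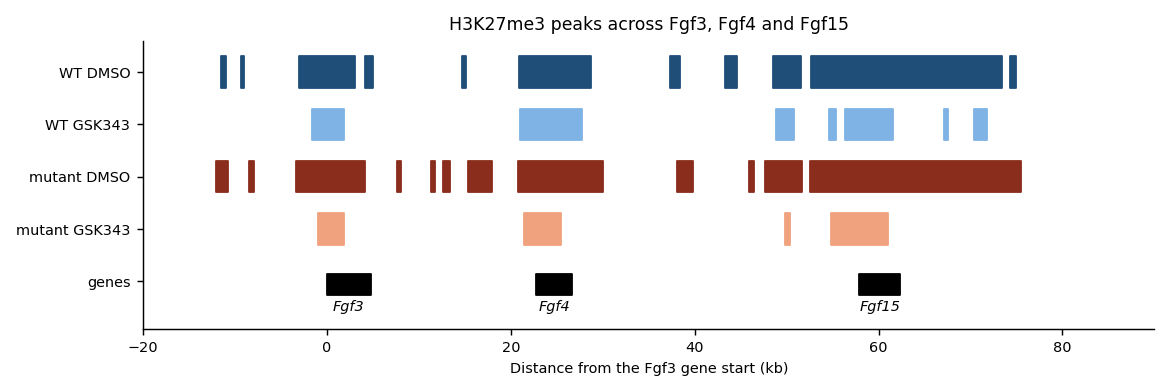
Peaks (bars) of the 4 lists over Fgf3, Fgf4 and Fgf15, by distance from the start of Fgf3 (kb, x axis). The Fgf15 peak is 20.8 kb wide in wild type with DMSO and 5.25 kb with GSK343, and the Fgf4 peak 7.81 and 6.81 kb.

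Between genotypes, most members had more coverage in the mutant under DMSO and less under GSK343, as most genes did. Under DMSO the median ratio of mutant to wild-type share was 1.26, and 48 of 56 members were higher in the mutant (85.7%), against 83.3% of all genes. Under GSK343 the median ratio was 0.915, and 35 of 51 members were lower in the mutant (68.6%), against 71.3% of all genes. The median share over all 58 members went the other way under GSK343, with 8.25% in wild type and 10.0% in the mutant, so the direction there depends on whether members are paired. The shares of members that were higher or lower are near those of all genes, whose median ratios were 1.35 and 0.784, so the shift is not particular to the members. It also goes with the number of peaks in the lists, 49803 against 39495 under DMSO and 10847 against 11903 under GSK343. Higher under DMSO and lower under GSK343 were 29 of 51 members (56.9%), and 61.0% of all genes covered in both wild-type lists.

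Among members covered by at least 10% in either DMSO list, 2 of 46 differed by 2-fold or more between the genotypes under DMSO, and both were higher in the mutant, as were 19.7% of all such genes. Gdf10 had 9.39, 0, 19.6 and 3.88%, a DMSO ratio of 2.09. Gdf11 had the values given above, a ratio of 2.11. Gdf11 is also the member whose treatment ratio in wild type changed direction with the choice of peaks: it was 0.781 over all peaks and 1.14 with stricter peak thresholds or with peaks of at least 1 kb. Its small share thus gives no stable direction. Under GSK343, 5 of 51 members had 0.5 times the wild-type share or less in the mutant, against 29.3% of all genes: Notch4 (ratio 0.324), Ptch1 (0.477), and Fgf1, Fgf6 and Fgf22, which had no peak there. A ratio of at least 2 was found for 3 of 51, Fgf23 (3.95), Fgfr4 (2.97) and Bmp3 (2.18), against 3.57% of all genes.

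The other genes of the 4 pathways, 98 in a list compiled for comparison, were covered less than the members and had a peak more often than all genes. A peak was present for 59, 43, 65 and 43 of them, and the median share was 2.87, 0, 6.94 and 0%. These counts are 60.2, 43.9, 66.3 and 43.9%, against 43.5, 26.3, 48.9 and 24.4% of all genes. The 17 other ligands, which here include the intracellular Fgf11 and Fgf13, had medians of 14.5, 7.71, 19.8 and 1.89%, and the 20 other receptors and co-receptors 7.18, 2.80, 15.9 and 1.77%. Of the 25 signal transducers, which relay the signal inside the cell, 6, 4, 9 and 4 had a peak. That is 24, 16, 36 and 16%, below the share of all genes in each list. The median share was lower for other receptors than for other ligands in each list, and it was 0% for transducers in each. In presence and in covered length the order was the opposite: 19, 14, 19 and 14 of the 20 other receptors had a peak, against 12, 10, 12 and 10 of the 17 other ligands, and median covered lengths were 6.18, 1.87, 7.84 and 1.39 kb against 2.32, 1.03, 4.47 and 0.302 kb. Median windows were 50.9 kb for these receptors and 16.4 kb for these ligands. A peak was present for 1, 0, 2 and 0 of the 10 transducers of Notch, and the 4 glycosyltransferases that tune Notch gave 0, 0, 1 and 0. Both sets were below the share of all genes in each list. The covered ones were the coactivator Maml3 (0.445% in wild type with DMSO, 0.366% in the mutant with DMSO), Rbpj, the DNA-binding partner of Notch (0.705% in the mutant with DMSO), and the Fringe gene Rfng (1.82% in the mutant with DMSO).

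Of the 23 feedback regulators and target genes, 17, 11, 18 and 10 had a peak, with medians of 9.87, 0, 15.5 and 0%. These counts are 73.9, 47.8, 78.3 and 43.5%, above the 43.5, 26.3, 48.9 and 24.4% of all genes. Hey1, a transcription factor that Notch switches on, was covered by 100, 44.3, 100 and 39.0%. Id1, an inhibitor of bHLH factors that BMP switches on, was covered by 100, 77.6, 100 and 64.3%. Etv4, a transcription factor downstream of FGF, had 71.2, 34.1, 72.5 and 26.4%. Among targets coverage thus also ran from whole windows to none, since Hes1, a Notch target as well, and Smad7, an inhibitor of BMP signalling, had no peak in any list. Inha, the alpha subunit of inhibin, was covered by 100, 27.8, 100 and 34.6%, and Dlk1, a non-canonical Notch ligand, by 71.3, 36.8, 71.8 and 36.9%. The intracellular Fgf11 had 45.4, 27.7, 45.7 and 22.4%, and Fgfbp3, a carrier of secreted FGFs, 53.5, 14.9, 57.1 and 6.29%. Acvrl1, a BMP receptor of vessels, had 34.9, 22.9, 35.6 and 16.4%. Frs3, an adaptor of FGF receptors, had 34.4, 5.25, 42.7 and 2.79%, and Kif7, a kinesin of the Hedgehog pathway, 38.9, 11.3, 47.4 and 10.7%. Ligands, receptors and transducers outside the 58 thus each held some widely covered genes under DMSO. The antagonist Nbl1 had 80.6, 23.2, 83.6 and 26.2%, and the Hedgehog co-receptor Gas1 41.8, 21.0, 48.7 and 23.5%. Sufu, which holds back the Gli factors, and the activin receptor Acvr1b had no peak in any list. The least covered of the other roles were Fgf13 (0.268, 0, 0.919 and 0%), the decoy FGF receptor Fgfrl1 (1.65, 0, 8.37 and 0%) and the Hedgehog co-receptor Cdon (5.35, 0, 6.93 and 0%), all without a peak under GSK343. Smad1, a BMP signal transducer and the most covered of its role in wild type with DMSO, had 8.58, 1.76, 10.5 and 1.09%.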

How the data were processed

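Splenic B cell H3K27me3 ChIP-seq was analysed from 4 broad peak lists, 1 per ChIP group; input samples have no list of their own here. The submitters' processing notes name bcl2fastq, Bowtie2 2.4.2, SAMtools 1.12, MACS2 2.2.7.1, bedtools 2.29.2, deepTools 3.5.1 and mm10, without roles. Per the file names, the authors took out peaks in blacklisted regions. Each deposited peak has a fold (a ratio of ChIP to background), −log10 p and −log10 q values, all used only to rank or filter peaks within a list, and a score that was deposited and not used. Read depth is unknown from the lists, so a wider peak and a deeper library cannot be told apart.

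Peaks were intersected with RefSeq GRCm38.p6 gene bodies plus 5 kb each side (21627 coding genes, chromosomes 1 to 19 and X; overlapping peaks counted once; at least 1 bp as presence) in Python 3.11.15 (pandas 2.3.3, numpy 2.4.6; figures by matplotlib 3.10.9; rank correlations and intervals by scipy 1.17.1). The code was tested on simulated data (200 of 200 windows recovered), and 232 of 232 member shares equalled those of bedtools 2.31.1. Each list being 1 per group, no test was made. A 2-fold lower share means a ratio of at most 0.5. Start sites and sequences are RefSeq's, on GRCm38.p6, 1 start per gene (the listed one nearest the gene's 5′ end). They were matched by symbol for 43 members, and those of the other 15 were not used here.

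Members and lists were chosen with earlier results of these data known. Genes were named by rule: the 2 highest and 2 lowest in wild-type DMSO per role (all in roles of 5 or fewer), members without a peak, the 5 highest and 5 lowest GSK343 to DMSO ratios per genotype among members covered by at least 10% under DMSO, 2-fold genotype differences, and the highest and lowest of each pathway role (of ties at 0, examples). The 4 sequences, the Fgf3 locus and the start site lists were chosen after values were seen. Alternatives were 11 planned and 2 added settings of peak threshold, width, merging, window and gene set.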

Additional observations from a re-analysis of the deposited data

Results flagged for a closer look

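The median ratio of mutant to wild-type covered share over the 58 genes lay on opposite sides of 1 under the 2 treatments: 1.26 under DMSO (1.262, 56 genes) and 0.915 under GSK343 (51 genes). With 1 peak list a group, this difference was not tested. The same medians over all protein-coding genes were 1.35 and 0.784, and the lists differ in their number of peaks in the same directions.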

How the results depend on the processing

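Of 232 summary values over 13 alternative settings, 195 stayed within 1.5 times the reported value and 37 moved further. Most are counts or medians, which have no direction. Of 88 ratios and ligand minus receptor differences, 0 changed direction. The subset of windows of 20 to 40 kb was not among these settings. There ligands were below receptors in both DMSO lists and in the mutant with GSK343. Keeping 1 member of those that share a peak left all 58, so it changed nothing. Of single members' values 2368 stayed, 722 moved and 5 reversed. The 5 are all the wild-type GSK343 to DMSO ratio of Gdf11, 1.14 with q of at most 0.01, fold of at least 3, −log10 p of at least 5, equal numbers of top peaks or peaks of at least 1 kb. With −log10 p of at least 5 the median share in wild type with GSK343 was 5.10%. With 20 kb flanks the wild-type DMSO median was 18.3%. Within 2.5 kb of the start (43 members) the medians were 76.3, 52.1, 90.9 and 45.2%, the treatment ratios 0.692 (wild type) and 0.578 (mutant), and 11 of 37 and 16 of 38 members were lower by 2-fold or more. The ligand minus receptor difference stood at 28.0 and 11.4 points (wild type DMSO, GSK343) with peaks closer than 3 kb merged, at 35.0, 11.9 and 13.2 (wild type DMSO, GSK343, mutant GSK343) over gene bodies alone, and at 8.83, 13.5 and 4.09 (wild type DMSO, mutant DMSO, mutant GSK343) with 20 kb flanks. It was 45.9 and 21.9 (wild type, mutant GSK343) near starts. In 2 settings chosen after seeing the data, it was 17.6 (wild type GSK343) and 7.42 (mutant DMSO) in windows under 40 kb, and 29.8, 17.2 and 12.97 (wild type DMSO, GSK343, mutant GSK343) among the 33 members with no other coding gene in the window. The gap between the highest and the lowest family median was 3.46 (mutant GSK343, peaks of at least 1 kb), 22.3 and 18.4 (wild type, mutant GSK343, merged), 41.1 and 12.5 (mutant DMSO, GSK343, gene bodies), 10.3 and 11.7 (wild type, mutant DMSO, 20 kb flanks), 37.1 and 33.6 (wild type, mutant GSK343, near starts), and 18.4, 6.72 and 38.1 (wild type DMSO, GSK343, mutant DMSO, no other coding gene). In that last set Hedgehog was the lowest family in each list. Hedgehog was also not the highest with 20 kb flanks in the mutant with DMSO (Notch 32.6%, Hedgehog 26.6%), nor near starts in wild type with GSK343 (Notch 64.04%, Hedgehog 63.96%) and in the mutant with DMSO (BMP 100%, Hedgehog 96.1%). The cause was not tested. No paired analysis was possible because peaks come as 1 list a group, which also kept any replicate from being left out. Depth and replicate spread are unknown from peak lists.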
